A study of Mus musculus with 5 samples.

Results

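Nanog, Esrrb, Zfp42 (also called Rex1), Fbxo15, Dppa5a, Nr0b1 (Dax1), Nr5a2 (Lrh1) and Tcfcp2l1 (Tfcp2l1 in RefSeq) are 8 genes used as markers and factors of the naive pluripotent state. They were chosen by name, and every probe that the platform annotation assigns to them was read on all 5 arrays. Of the 8 genes, 7 had a probe, with 11 probes in all, against 16593 genes and 25697 probes on the whole array. No probe was annotated to Tcfcp2l1, so its level was not analysed here.

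The samples were cultures of E3, a line of mouse epiblast stem cells, with 1 bead array for each of 5 conditions and therefore no replicate check of any difference. All cultures had grown on inactivated CF1 mouse embryonic fibroblasts in KSR medium (the labels' name) with 5 ng/ml FGF2, and at semiconfluence each was moved for 12 h to KSR medium for which the labels list no FGF2. That medium held no supplement (untreated), 1 µM PD0325901 (PD, an inhibitor of the kinase MEK), 3 µM CHIR99021 (CH, an inhibitor of the kinase GSK3), 1000 U/ml leukemia inhibitory factor (LIF, a cytokine that acts through STAT3), or all of these agents together (PCL). Each ± below is a bead standard error, the error of a probe's mean over its beads within an array. For a difference or a gap from a sum, it is carried over from the arrays used. This error does not cover the scaling between arrays or the spread between cultures. Feeder cells were in the same dishes, and in such bulk RNA fewer cells of a type and less RNA per cell cannot be told apart.

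Naive embryonic stem cells resemble the pre-implantation epiblast, and epiblast stem cells the post-implantation epiblast. Both express Pou5f1 and Sox2, and the naive state is set apart by a network of transcription factors that includes Esrrb, Nr5a2, Nr0b1 and Tcfcp2l1, with Nanog shared by both states at different levels. In mouse embryonic stem cells the MEK and GSK3 inhibitors and LIF together sustain that network: GSK3 inhibition relieves repression of Esrrb and Nanog by Tcf7l1, LIF acts on STAT3 targets such as Tcfcp2l1, and MEK inhibition blocks the ERK signal that drives exit from the state.

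Promoter sequences of 3 members that were detected on every array are shown to give the letters around their start sites, from 250 bases before to 50 bases after an annotated start, on the strand of the gene, from the RefSeq table for GRCm38.p6. That table held 9 windows for 6 of the 8 genes. Capitals mark matches to short motifs searched on both strands: the octamer ATGCAAAT, the orphan receptor element TCAAGGTCA and its core AAGGTCA, the TCF elements CTTTGAT and CTTTGAA, the STAT element TTCNNNGAA, and a paired element for octamer and Sox proteins, TTTGCAT and ACAATG with 1 base between them. The receptor core lies within the full receptor element, and the paired element was added with the published Nanog promoter in mind. The Nanog window below is at chr6:122707315-122707614 on the plus strand, the Esrrb window at chr12:86360867-86361166 on the plus strand and the Zfp42 window at chr8:43306960-43307259 on the minus strand.
Nanog: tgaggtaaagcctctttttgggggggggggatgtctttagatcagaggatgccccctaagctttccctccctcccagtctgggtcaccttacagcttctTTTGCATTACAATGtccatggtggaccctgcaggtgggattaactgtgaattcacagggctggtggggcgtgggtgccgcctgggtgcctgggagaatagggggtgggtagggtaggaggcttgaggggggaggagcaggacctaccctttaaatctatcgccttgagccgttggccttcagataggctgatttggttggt
Esrrb: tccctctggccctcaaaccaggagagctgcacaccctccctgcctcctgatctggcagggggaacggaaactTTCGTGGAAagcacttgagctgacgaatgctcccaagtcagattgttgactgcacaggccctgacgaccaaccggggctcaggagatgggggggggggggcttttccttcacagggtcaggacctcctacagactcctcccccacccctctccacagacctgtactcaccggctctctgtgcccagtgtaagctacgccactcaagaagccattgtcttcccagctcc
Zfp42: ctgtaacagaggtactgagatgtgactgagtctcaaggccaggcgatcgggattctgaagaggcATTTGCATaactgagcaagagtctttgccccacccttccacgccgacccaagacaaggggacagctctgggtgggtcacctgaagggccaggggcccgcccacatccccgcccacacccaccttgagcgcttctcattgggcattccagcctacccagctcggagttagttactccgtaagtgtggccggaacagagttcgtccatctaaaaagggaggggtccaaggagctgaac

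The paired element matched from -151 to -138 in this Nanog window, counted from the annotated start, and the same letters lay in the other, overlapping Nanog window. It was found in 2 of 32851 promoter windows (0.00609%), both of Nanog. The STAT element matched once, in the Esrrb window from -178 to -170, and was present in 8.30% of all windows. The octamer matched in the Zfp42 window from -186 to -179, on the opposite strand, and was present in 1.74% of all windows. The shares of all windows with the other motifs were 0.423% for TCAAGGTCA, 4.72% for AAGGTCA, 3.73% for CTTTGAT and 5.14% for CTTTGAA. None of these motifs was found in the member windows that were read. A match of letters is a description of these windows only.

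After 12 h the members fell into a detected and an undetected group, and the same genes were detected in all 5 conditions. A probe was called detected at a detection p under 0.01, the p being the share of 798 negative control probes at or above it. Nanog, Esrrb, Zfp42, Fbxo15 and Dppa5a were detected on every array, untreated cells included, while Nr0b1 and Nr5a2 were detected on none. For reference, between 43.5% and 45.3% of all genes on the array were detected. The count stayed at 5 members on each array at detection p under 0.05 and under 0.001, and 5 members were listed for each array in the authors' processed table.

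Nr0b1, an orphan receptor without a usual DNA-binding domain that binds and restrains other factors of the network, had raw intensities of 81.1 ± 3.5 in untreated cells, 83.0 ± 1.7 with PD, 84.4 ± 2.2 with CH, 81.1 ± 2.1 with LIF and 83.5 ± 2.4 in PCL. The level of the negative controls on these arrays was 80.6 to 85.8, and its detection p lay between 0.461 and 0.744. The only probe of Nr0b1 was thus at the level of the controls in all 5 conditions. Whether this probe gives a signal in cells that express the gene was not tested.

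Nr5a2, a nuclear receptor that binds regulatory DNA of Pou5f1 in mouse cells, had 3 probes with raw intensities from 75.7 to 94.2. Its probe ILMN_2634389 read 76.0 ± 3.0 in untreated cells, 90.5 ± 2.8 with PD, 88.3 ± 3.7 with CH, 93.5 ± 3.1 with LIF and 87.0 ± 3.0 in PCL, and its lowest detection p was 0.0639, with LIF. The other probes, ILMN_2751680 and ILMN_2813203, reached a detection p of 0.0940 at the lowest, with PD, and 0.244 at the lowest, with PCL. The lowest intensity of any detected probe was 98.9 on the untreated array and 101 to 107 on the others, above every reading of Nr5a2. The 3 probes did not order the conditions alike, and no fold is given for a gene below detection on every array.

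**Figure D1:**
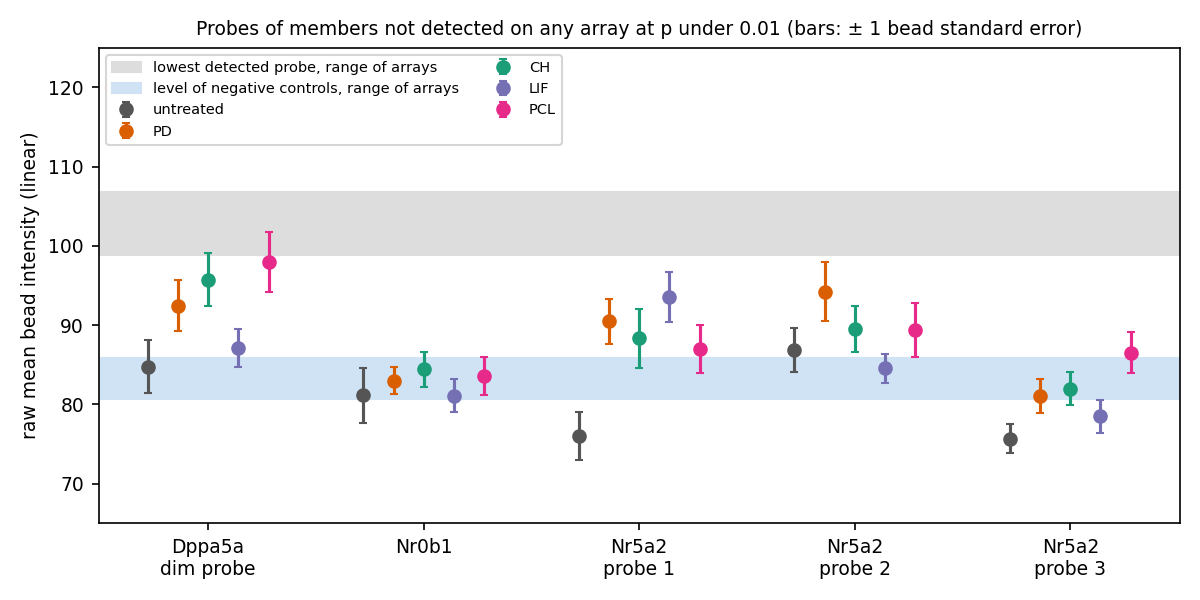
Raw mean bead intensity (linear scale) of the 5 member probes detected on no array, by condition, with bars of ± 1 bead standard error. All points lie below the grey band of the lowest detected probe on each array (98.9 to 107), and those of Nr0b1 lie within or next to the blue band at the level of the negative controls (80.6 to 85.8).

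Nanog, the homeobox factor whose level separates the pluripotent states, was higher with either kinase inhibitor and highest with PCL. Its normalised log2 level was 10.04 ± 0.06 in untreated cells, 10.64 ± 0.07 with PD, 10.55 ± 0.06 with CH, 10.13 ± 0.08 with LIF and 10.80 ± 0.10 in PCL. The 3 arrays of cultures with an inhibitor stood together above the untreated and LIF arrays, with a gap of 0.42 ± 0.10 between LIF and CH. Within each of these 2 sets, neighbours lay closer than 2 bead standard errors.

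The differences of Nanog from untreated were 0.61 ± 0.10 with PD (1.53-fold), 0.52 ± 0.08 with CH (1.43-fold) and 0.76 ± 0.11 with PCL (1.70-fold). With LIF alone the difference was 0.10 ± 0.10, within 1 bead standard error, and it stood at -0.036 under median scaling. Among compared genes, those detected on at least 1 of the 2 arrays, 134 of 7652 stood higher than Nanog with PCL, 388 of 7761 with PD and 425 of 7699 with CH. With LIF, 3499 of 7796 did. PCL exceeded PD by 0.16 ± 0.12 and CH by 0.25 ± 0.11, and exceeded LIF by 0.67 ± 0.12. In raw intensity Nanog read 1700 ± 61 with CH and 1702 ± 112 in PCL, so the excess over CH came with normalisation.

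Esrrb, an orphan nuclear receptor of the naive network and a target of GSK3 inhibition in mouse embryonic stem cells, was detected in untreated cells and was highest with PCL. Its log2 level was 7.28 ± 0.11 in untreated cells, 7.45 ± 0.10 with PD, 7.60 ± 0.07 with CH, 7.64 ± 0.07 with LIF and 7.99 ± 0.07 in PCL. The first 4 of these levels formed a run in which no neighbours were 2 bead standard errors apart, and PCL stood 0.35 ± 0.10 above LIF, the next array. In raw intensity Esrrb read 287 ± 11 with LIF and 296 ± 11 in PCL. Most of that gap thus came with normalisation, whose error the ± does not cover.

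Against untreated, Esrrb stood at 0.71 ± 0.13 with PCL, which is 1.63-fold. Each agent alone gave less: 0.35 ± 0.13 for LIF, 0.32 ± 0.13 for CH and 0.17 ± 0.14 for PD. The CH value lay above 85.6% of compared genes, the LIF value above 82.9% and the PCL value above 97.8%. PCL exceeded PD by 0.54 ± 0.12 and CH by 0.39 ± 0.10. CH and PD differed by 0.15 ± 0.12 and LIF and CH by 0.04 ± 0.10.

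Fbxo15, an F-box protein gene used as a reporter of pluripotency in mouse cells, showed the widest range upward. Its log2 level was 7.05 ± 0.09 in untreated cells, 7.26 ± 0.07 with CH, 7.52 ± 0.08 with PD, 7.75 ± 0.07 with LIF and 8.32 ± 0.09 in PCL. From CH onward each step in this order was larger than 2 bead standard errors, and the step from untreated to CH, 0.21 ± 0.11, was not.

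Fbxo15 stood 1.26 ± 0.13 above untreated with PCL (2.40-fold), where 27 of 7652 compared genes stood higher. With LIF alone it stood at 0.70 ± 0.11 (1.62-fold), above 98.1% of compared genes, and with PD at 0.46 ± 0.12 (1.38-fold). It was the one detected member at least 2-fold higher in any comparison with untreated, on a background of 0.706% of genes that far up with PCL. The PCL value was 0.94 without background correction, short of 2-fold. PCL also exceeded CH by 1.05 ± 0.11, PD by 0.80 ± 0.12 and LIF by 0.57 ± 0.11, and 0.33% of genes were at least 2-fold higher with PCL than with CH. The PCL value over CH was 0.91 with an offset of 50 and 0.80 without background correction, short of 2-fold in both.

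Zfp42, a zinc finger gene widely used as a marker that naive cells express and epiblast stem cells largely lack, was detected close to the lower end of the scale and was not set apart in any condition. Its log2 level was 6.37 ± 0.17 in untreated cells, 6.02 ± 0.21 with PD, 6.12 ± 0.16 with CH, 6.49 ± 0.18 with LIF and 6.43 ± 0.15 in PCL, on arrays where detected probes began at 5.02 to 5.17. No neighbours in this order differed by 2 bead standard errors. The differences from untreated were -0.35 ± 0.27 for PD, -0.25 ± 0.23 for CH, 0.13 ± 0.25 for LIF and 0.06 ± 0.22 for PCL. The largest difference between any 2 arrays, LIF over PD, was 0.47 ± 0.28, so a difference of Zfp42 was not resolved within these arrays.

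**Figure D2:**
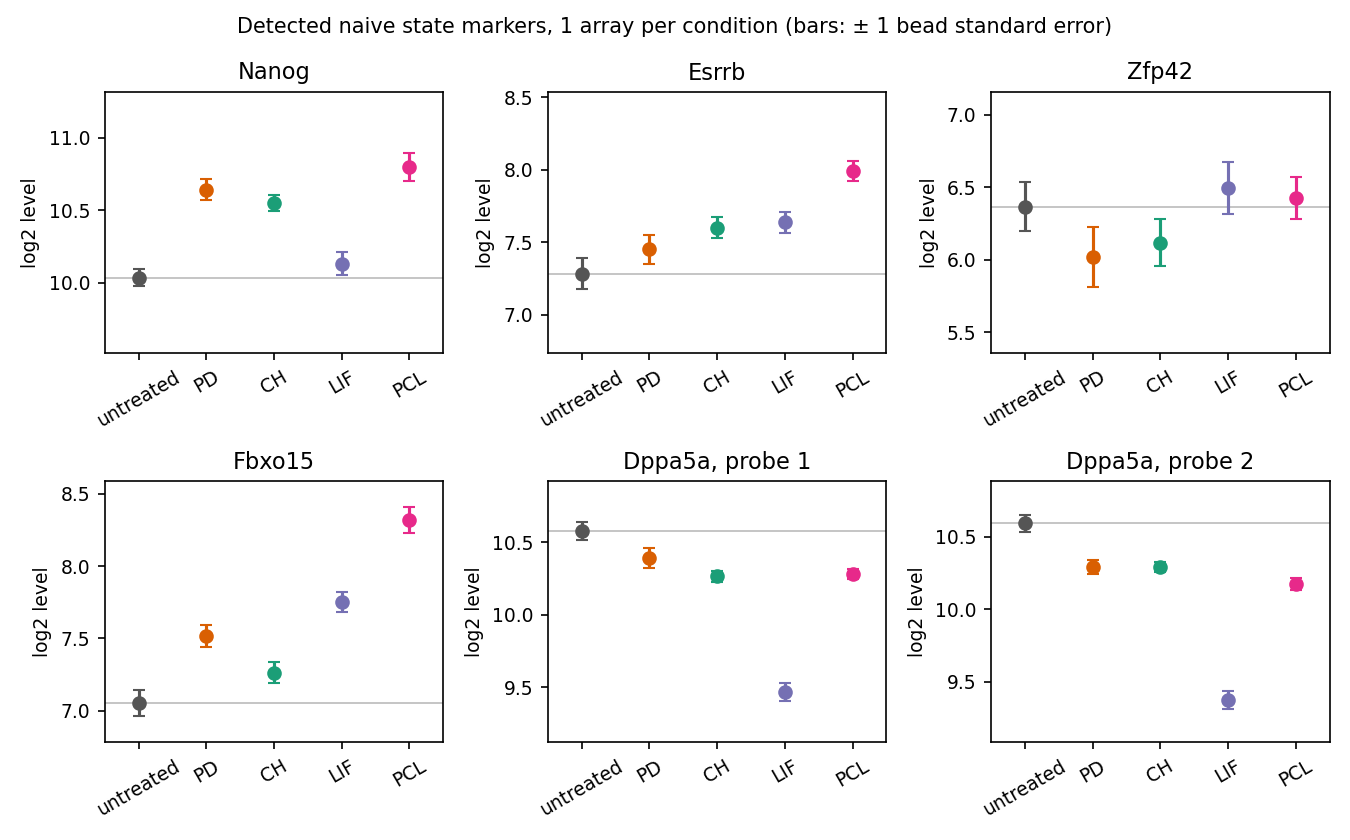
Normalised log2 level of the 6 detected member probes in each condition, with bars of ± 1 bead standard error and a grey line at the untreated level. Every panel spans the same log2 range, so slopes may be compared and absolute heights may not. PCL is the highest point for Nanog, Esrrb and Fbxo15, and LIF the lowest for both Dppa5a probes.

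Dppa5a, an RNA-binding KH domain protein of early embryos and pluripotent cells, ran the other way: its level was highest in untreated cells and lowest with LIF. By probe ILMN_3018711 (probe 1) its log2 level was 10.58 ± 0.06 in untreated cells, 10.39 ± 0.07 with PD, 10.27 ± 0.04 with CH, 9.47 ± 0.06 with LIF and 10.28 ± 0.03 in PCL. Probe ILMN_3090545 (probe 2) read 10.59 ± 0.06, 10.29 ± 0.05, 10.29 ± 0.04, 9.37 ± 0.06 and 10.17 ± 0.04 in the same order of conditions. Both probes placed LIF lowest, at least 0.80 ± 0.07 below the next array, and untreated highest, with PD, CH and PCL between them.

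Dppa5a stood at -1.11 ± 0.09 with LIF by probe 1 and at -1.22 ± 0.09 by probe 2, which is 2.16-fold and 2.33-fold lower than untreated. It was the one member at least 2-fold lower in a comparison with untreated, on a background of 2.81% of genes that far down with LIF. The values with PD were -0.19 ± 0.09 and -0.30 ± 0.08, with CH -0.31 ± 0.07 and -0.30 ± 0.07, and with PCL -0.30 ± 0.07 and -0.42 ± 0.08. PCL, which also held LIF, exceeded LIF alone by 0.82 ± 0.07 and 0.80 ± 0.07.

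The third probe of Dppa5a, ILMN_2774896, gave no such signal. Its raw intensity was 84.7 to 97.9, with a detection p of 0.0213 at the lowest, on the PCL array, against 782 to 1619 for probes 1 and 2. The platform table assigns all 3 probes to 1 transcript accession, and the RefSeq table holds 2 pseudogenes named for this gene on chromosome 9, Dppa5b and Dppa5c. Whether any probe also matches these copies was not tested.

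The LIF array stood apart from the others in its short genes, and Dppa5a is a short gene, with a genomic span of 1148 bp. Among the 813 genes of the shortest of 10 groups by span (107 to 4124 bp), the median difference of LIF from untreated was -0.30 and 114 stood at least 2-fold lower, against 3 of 814 in the longest group. Within the shortest group, 84 genes stood lower than Dppa5a by probe 1 and 63 by probe 2. The median of that group was -0.14 with PD, -0.13 with CH and -0.05 in PCL. The part of gene length in the Dppa5a value was not tested.

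**Figure D3:**
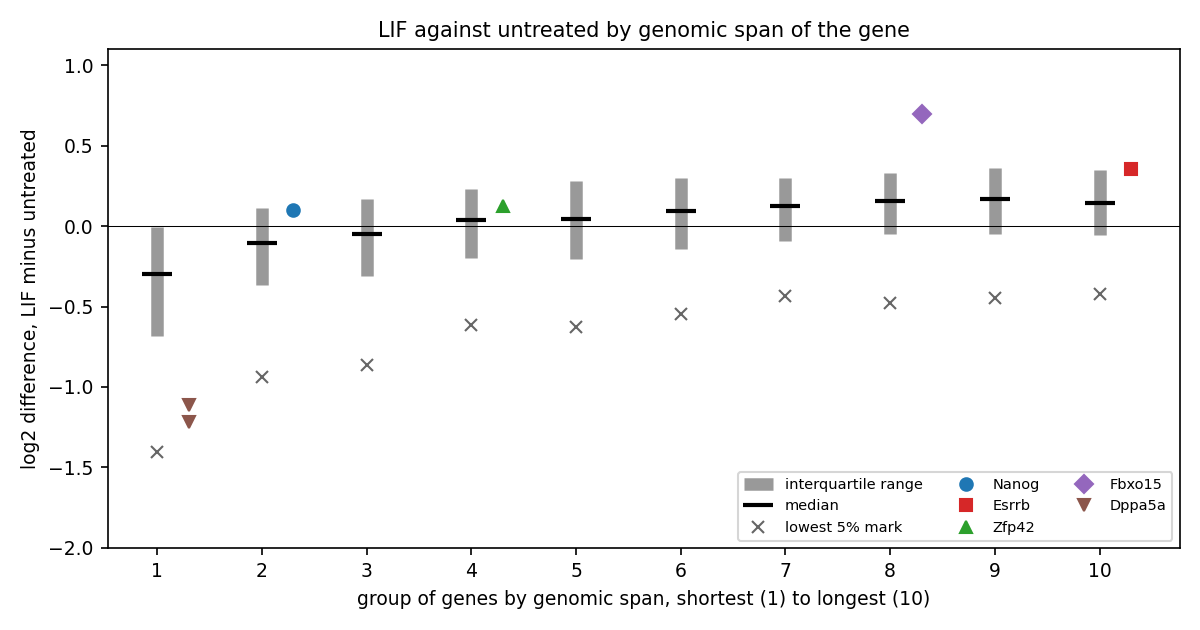
Log2 difference of LIF from untreated for genes grouped by genomic span, shortest to longest, with the median, the interquartile range and the lowest 5% mark of each group, and the detected members beside their own group. Both Dppa5a points lie below the interquartile range of the shortest group and above its 5% mark (-1.40), and Fbxo15 lies at 0.70 in the eighth group.

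The spans of the other detected members were 7145 bp for Nanog, 11943 bp for Zfp42, 46925 bp for Fbxo15 and 160512 bp for Esrrb. The group that holds Nanog had a median of -0.11 with LIF, and 593 of its 813 genes stood lower than Nanog. The groups that hold Fbxo15 and Esrrb had medians of 0.15 and 0.14, below the values of these members, 0.70 and 0.35. For Fbxo15, 786 of 814 genes of its group stood lower, and for Esrrb 618 of 814 did. With PD, the medians of the groups that hold Nanog, Fbxo15 and Esrrb were -0.13, 0.10 and 0.15. The values of these members with PD were 0.61, 0.46 and 0.17.

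Side by side, the 5 detected members had no common direction with a single agent. With PD and with CH, 3 stood above untreated (Nanog, Esrrb and Fbxo15) and 2 below (Zfp42 and Dppa5a). With LIF and with PCL, 4 stood above and Dppa5a below, of which Nanog turned below 0 with LIF under median scaling. These counts include differences within 2 bead standard errors of 0. Such were those of Zfp42 throughout, Esrrb with PD, Fbxo15 with CH and Nanog with LIF. Of all compared genes, 50.2% with PD, 48.5% with CH, 55.2% with LIF and 49.3% in PCL stood above 0. These comparisons share the untreated array. None of the 5 was at least 2-fold apart from untreated with PD or CH, where 0.941% and 0.961% of genes were, and 1 was in each of LIF and PCL, where 2.96% and 1.39% were.

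**Figure D4:**
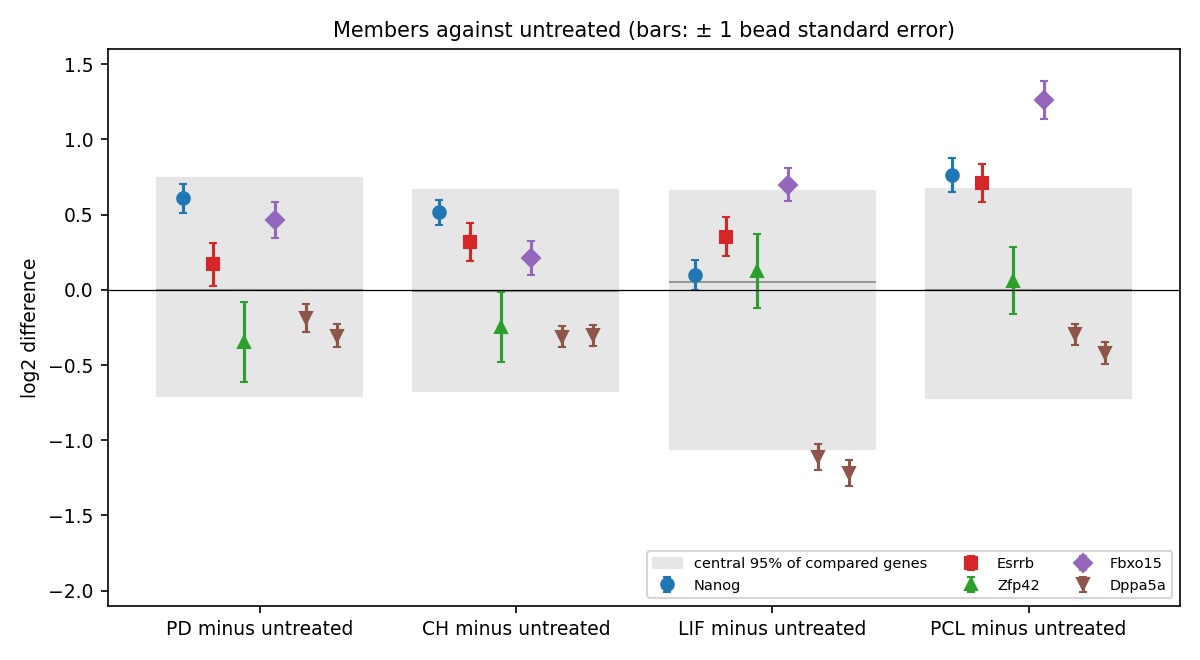
Log2 difference from untreated of each detected member probe (symbols, with bars of ± 1 bead standard error) over the central 95% of all compared genes (grey). Fbxo15 at 1.26, Nanog at 0.76 and Esrrb at 0.71 lie above the grey range with PCL. With LIF, Fbxo15 at 0.70 lies above the range and Dppa5a lies below it by both probes.

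The combination was set against the sum of the 3 single treatments on the log2 scale, where the untreated array enters more than once and its error with it. For Fbxo15 the sum was 1.37 and PCL stood at 1.26, a gap of -0.11 ± 0.23. For Esrrb the sum was 0.84 and PCL 0.71, a gap of -0.13 ± 0.26. Both were thus within 1 bead standard error of the sum. Nanog stood below it, with a sum of 1.22 against 0.76 and a gap of -0.46 ± 0.20, which was -0.20 ± 0.20 under median scaling. Zfp42 had a gap of 0.53 ± 0.48. Dppa5a with PCL was above its sum by 1.31 ± 0.16 for probe 1 and 1.41 ± 0.15 for probe 2, and the LIF array supplied most of that sum.

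**Figure D5:**
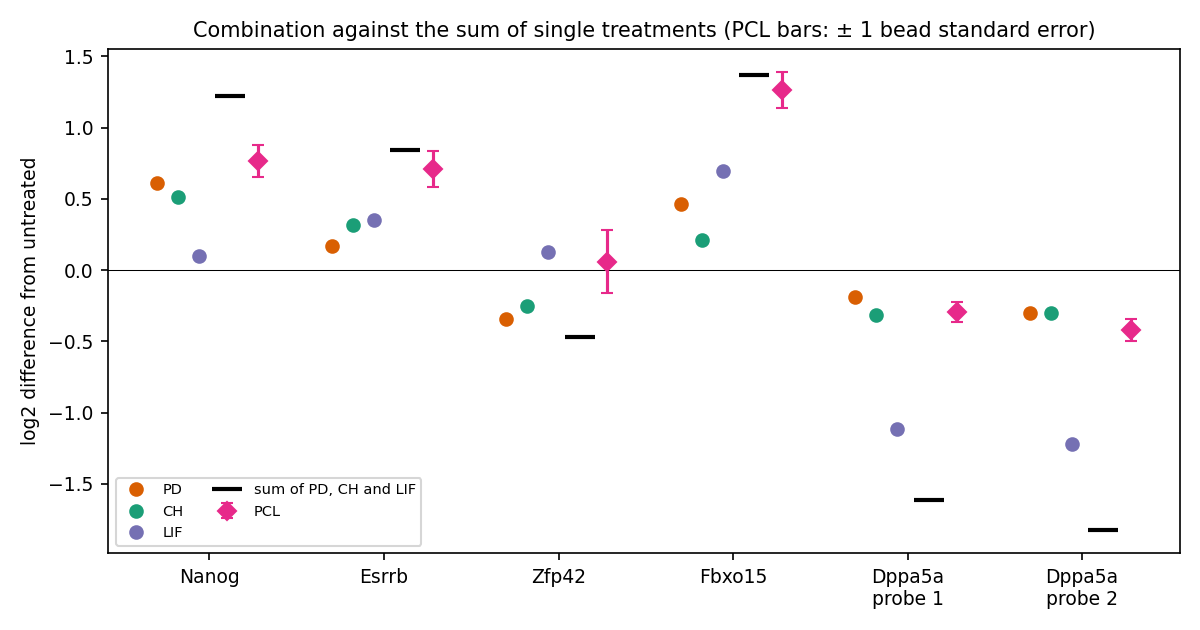
Log2 difference from untreated of each detected member probe with PD, CH and LIF (circles), their sum (black bar) and the measured PCL value (diamond, ± 1 bead standard error). PCL lies next to the sum for Esrrb and Fbxo15, below it for Nanog, and far above it for both Dppa5a probes.

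Other genes of the naive state were read from a list of 24, of which 18 had a probe and 12 were detected on some array. Their median difference, over 10 or 11 compared genes, was 0.42 with PCL, 0.25 with LIF and 0.01 with either inhibitor, while the median of all compared genes lay between -0.01 and 0.05. With no detection filter, over 18 genes, the medians were 0.15 with PCL, 0.19 with LIF, -0.02 with PD and -0.13 with CH. With PCL, 8 stood above 0 and 3 below. Klf2, a Krüppel-like factor of the naive network, stood at 2.17 ± 0.14 with PCL, against 0.83 ± 0.15 with PD, 0.88 ± 0.16 with CH and 0.28 ± 0.15 with LIF. Gbx2, a homeobox gene that is also a Wnt and STAT3 target in mouse stem cells, was at least 12.9-fold higher with PCL and at least 4.42-fold higher with CH, being undetected in untreated cells and entering the counts through its high values. Fgf4, the growth factor that feeds the ERK pathway in stem cells, stood at -1.83 ± 0.19 with PCL and -1.33 ± 0.20 with CH, and Dppa4 at -1.08 ± 0.12 with PCL. Klf5 stood at 0.67 ± 0.10 with PCL and Dppa3 (Stella) at 0.61 ± 0.14. Prdm14, Tcl1, Jam2, Sox15, Lifr and Pramel7 were detected on no array, and Klf4 and Tbx3 on 1 each.

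Genes that act on these members, a list of 21 with 19 on the array, had medians of 0.36 with LIF, 0.26 with PD, 0.04 with PCL and -0.01 with CH. Stat3, the effector of LIF, stood at 1.29 ± 0.13 with LIF and 0.90 ± 0.15 in PCL, and its other probes read 0.92 and 1.08 with LIF and 0.36 and 0.96 in PCL. Tcf7l1, the repressor of Esrrb and Nanog that GSK3 inhibition relieves in mouse embryonic stem cells, stood at -0.66 ± 0.06 with CH and 0.01 ± 0.06 with PCL. Pou5f1 stood at 0.43 ± 0.08 with LIF and -0.39 ± 0.09 in PCL, where its second probe read 0.26 and -0.42, and at 0.05 ± 0.08 with PD and 0.08 ± 0.12 with CH, where that probe read -0.60 and -0.21. Sox2 stood at -0.59 ± 0.14 with CH, where its other probe, not detected on the untreated array, read 0.12. Nodal, a ligand that maintains epiblast stem cells, stood at 1.33 ± 0.15 with CH, and its co-receptor Tdgf1 at -1.09 ± 0.20 with PD. The other Tdgf1 probe read -0.37 with PD and was detected on neither the PD nor the untreated array. Foxd3, Lef1 and Prdm14 were detected on no array.

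Markers of the primed state were a list of 20 with 19 on the array, and 14 to 16 were compared. Their medians were 0.28 with CH, 0.24 with PCL, -0.04 with LIF and -0.10 with PD, and the CH median was 0.08 when undetected members were kept and -0.05 for those detected on both arrays. With PCL, the condition where Nanog, Esrrb and Fbxo15 were highest, 15 primed markers were compared. Of these, 3 stood at least 2-fold below untreated, where 0.68% of all compared genes did. Another 2 stood at least 2-fold above, where 0.706% of all compared genes did. Those below were Utf1 at -1.77 ± 0.12, the POU factor Pou3f1 at -1.61 ± 0.12 and Fgf5 at -1.16 ± 0.14. Those above were Fst at 2.10 ± 0.15 and Wnt8a at 1.49 ± 0.14 (1.28 and 1.27 by its other probes). Short of 2-fold were Gsc at 0.99 ± 0.13 and Otx2 at -0.71 ± 0.09. Dnmt3b was short of it too at -0.42 ± 0.07, but its other probe read -1.18. With CH alone Fgf5 stood at 0.97 ± 0.11. Among the other primed markers with CH, the difference on the log2 scale was 3.46 ± 0.12 for Fst, 2.38 ± 0.12 for Gsc, 2.34 ± 0.13 for Wnt8a (1.88 and 2.33 by its other probes) and -1.16 ± 0.09 for Pou3f1. Eomes, not detected on the untreated array, was at least 2.27-fold higher. With PD Utf1 stood at -1.12 ± 0.12, and with LIF Wnt8a stood at -2.05 ± 0.21, where its other probes read -1.84 and -1.07, the latter not detected on the LIF array.

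All 9 markers fixed for epiblast stem cells were detected on every array, with Nanog among them. Their summed linear level was 22944 in untreated cells, 23910 with PD, 21674 with CH, 27715 with LIF and 16921 in PCL, the array where Nanog, Esrrb and Fbxo15 were highest. The sum follows its brightest members, Dnmt3b (log2 level 13.54 in untreated cells and 13.12 in PCL) and Pou5f1 (12.35 and 11.96). Against untreated, this Dnmt3b probe read -0.42 in PCL and 0.30 with LIF. The other Dnmt3b probe, outside the sum, read -1.18 and -0.55. The sum also holds Utf1, Pou3f1 and Fgf5, which stood at least 2-fold lower in PCL. The sum thus cannot separate cell number from a change in these genes. Of 20 feeder fibroblast markers, 12 to 14 were detected, and their summed linear level was 3761 in untreated cells, 5815 with PD, 4107 with CH, 4285.5 with LIF and 4649 in PCL. The median difference over 14 compared feeder markers was 0.50 with PD, 0.19 in PCL, -0.03 with LIF and -0.04 with CH, and with CH and with LIF 8 of the 14 stood below 0. With PD, 11 stood above 0 and 3 below. At least 2-fold higher with PD were 4 markers, where 0.49% of all compared genes were. These were Lox at 2.12 ± 0.11, Timp3 and Cd248 at 1.48, and Fbln2 at 1.11. Other probes read 0.37 for Cd248, and 0.34 and 0.49 for Fbln2. Mgp stood at -1.03 ± 0.20 with PD, where 0.451% of genes were at least 2-fold lower. Col1a2, Col3a1, Postn, Pdgfrb, S100a4 and Fap were detected on no array. Of 9 markers of extraembryonic endoderm, 3 to 5 were detected, and Gata4, Sox7, Afp and Ttr on none. The part of cell mixture in the member values was not tested. Housekeeping genes, a list of 10 with 8 on the array, had medians of 0.18 with LIF and between -0.06 and 0.00 on the other treated arrays. Single genes of that list ranged from -0.79 to 0.48 with LIF and from -0.41 to 0.39 with PD. With CH the range was -0.26 to 0.14, and in PCL it was -0.18 to 0.17. Some member differences lay inside these ranges, such as those of Esrrb with LIF and with PD.

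The genes whose 4 differences from untreated lay nearest to those of Nanog, by the root mean square gap over 5 arrays, were Zfp672 at a gap of 0.07, Slc4a2 at 0.08, Pxdc1 and Smo at 0.09, and Cfap20dc at 0.10. Those nearest to Esrrb were Trmt9b at 0.02, Fkbp14 and Mbip at 0.05, and Zfp449 and Fam110c at 0.08. They were taken from 3252 genes detected on all 5 arrays with a span of at least 0.5 over the conditions. With offsets of 1 and 50, 2 of the 5 genes named for Nanog were among its nearest 5, and 0 of the 5 for Esrrb, so these names describe this setting only.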

How the data were processed

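Per the labels' protocols, 400 ng of RNA was amplified and given a Cy3 label. The scanner tables that the authors deposited hold a probe's mean bead intensity (linear, no background subtracted), its bead standard error, and a detection p-value from negative controls. The submitters' processing notes name BeadStudio, with no version. A further deposited table of processed intensity, with scaling not given in the sources used here, served as an alternative.

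Intensities were background-corrected, given an offset of 16, quantile-normalised and log2-transformed by neqc (limma 3.58.1, R 4.3.3), checked on simulated data. The offset shrinks differences of dim probes. Bead errors were carried through each array's own map from raw intensity to log2 level. The brightest probe stood for a gene outside the members. Where a probe was detected on 1 of 2 arrays, "at least" gives its bright level over the higher of the lowest detected level and its own level on the dim array. With 1 array per condition there is no test, and the number of arrays limits the precision. Probes were named by the platform annotation (23978 with 1 symbol, 1719 with none), updated through a RefSeq table for GRCm38.p6 that also gave genomic spans. Python 3.11.15 with numpy 2.4.6, pandas 2.3.3 and matplotlib 3.10.9 did the rest.

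Members and lists were chosen with earlier results of these data known. Named genes were the members, list genes past 2-fold at value and bound with up to 3 more of large difference, and the 5 genes nearest in pattern to Nanog and to Esrrb.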

Additional observations from a re-analysis of the deposited data

How the results depend on the processing

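Each of the 20 differences of the 5 detected members from untreated was recomputed under other offsets (1 and 50), no background correction, median scaling, the authors' processed values and, for Dppa5a, the mean of its detected probes, and those of PD, CH and PCL also with normalization without the LIF array. Of 119 values, 108 moved by no more than 1 bead standard error. Without background correction Esrrb with PCL was 0.53, and Fbxo15 was 0.32 with PD, 0.50 with LIF and 0.94 in PCL. With an offset of 50 Fbxo15 was 0.58 with LIF and 1.08 in PCL. Under median scaling Nanog was 0.47 with PD and -0.036 with LIF, and Dppa5a was -0.35 with PD, -1.26 with LIF and -0.41 in PCL. Detection of 5 members on each array was the same at every threshold tried.

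Counts of all genes past 2-fold depended on the offset: with PCL they were 54 higher and 52 lower, but 183 and 230 with an offset of 1, and 18 and 10 without background correction. With PD, 38 and 35 became 210 and 195, or 8 and 7. With CH, 44 and 30 became 180 and 202, or 13 and 2. With LIF, 12 and 219 became 173 and 398, or 5 and 134. The authors' values gave 179 and 170 with PD, 143 and 159 with CH, 115 and 360 with LIF, and 172 and 174 with PCL, and an offset of 50 gave 15 and 10, 17 and 5, 6 and 161, and 28 and 17. No paired analysis was possible because each condition had 1 array. Signal over background limits Zfp42, Nr0b1 and Nr5a2.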
